A study of Mus musculus with 401 samples.

Results

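Nell1, Scara5 and Lrrtm3 encode proteins that meet the outside of the cell. Nell1 is a secreted glycoprotein with epidermal growth factor repeats, best known from bone formation, and its close relative Nell2 binds receptors of the Robo and Ros1 kinds. Scara5 is a class A scavenger receptor that takes up serum ferritin, the protein that stores iron. Lrrtm3 is a membrane protein with leucine-rich repeats that binds neurexins at synapses of the brain. Cumulus cells are the granulosa cells that enclose the oocyte in its follicle, and they pass metabolites and signals to it through gap junctions and secreted factors. The 3 genes were chosen by the size of the measured log2 difference between cumulus cells of calorie-restricted (CR) mice and of freely fed mice of the same age. Among genes with a mean of at least 8 CPM (counts scaled to the total of the library), Nell1 and Scara5 ranked 1 and 2 of 416 genes called higher in CR cumulus, and Lrrtm3 ranked 1 of 221 genes called lower, followed by Sfrp4. A gene was called where its adjusted p in edgeR's quasi-likelihood test was under 5%. That difference therefore describes the choice and carries no test here. The 3 genes are 3 of 41092 genes counted in a first set of libraries and 3 of 42349 in a second set, and each passed the filter of a count in at least 5 libraries in every comparison below.

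Single oocytes and the pool of cumulus cells around each one were sequenced as total RNA (RamDA-seq) from female B6D2F1 (C57BL/6 x DBA/2) mice. In the first set, mice on the ad libitum (AL) diet were 2 months (Young), 9 months (Middle) or 14 months (Old) of age, and the CR mice were 9 months old, kept singly and brought stepwise to a restricted daily ration from adulthood. In the second set all mice were on the AL diet and were 2, 4, 9 or 14 months old (2mo, 4mo, 9mo and 14mo). Mice of all these groups were hyperovulated with equine chorionic gonadotropin or HyperOva, and a further group of 2 months (2moNoH) was not hyperovulated. Which of these agents a mouse received is not given in the sources used here, so a difference in agent between compared groups cannot be told apart from the age, the diet or hyperovulation itself. Titles of the second set begin with B1 or B2, and what these prefixes mark is not given in the sources used here either. All libraries of a mouse share 1 prefix, and values within B1 or B2 below are over the libraries with that prefix. Cumulus libraries numbered 15 Young, 15 Middle, 16 Old and 25 CR in the first set and 24 2mo, 40 4mo, 16 9mo, 16 14mo and 32 2moNoH in the second set. They came from 2, 4, 2 and 3 mouse labels in the first set and from 5, 8, 4, 5 and 8 mice in the second set. The label Old1_2 joins mice, and libraries of 1 mouse are not independent, so p-values over libraries measure the spread between complexes. Oocyte libraries numbered 16, 14, 16 and 27 in the first set and 24, 39, 16, 16 and 32 in the second set, in the same order of groups. Median total counts per cumulus library were 1201007 in Young, 1091806 in Middle, 1288956 in Old and 2019007 in CR, and lay between 854688 and 883093 in the groups of the second set. Oocyte and cumulus of 1 complex of mouse Middle3 were left out, because the library labelled oocyte correlated with the mean cumulus profile at r = 0.938 and with the mean oocyte profile at r = 0.750.

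In CR cumulus Nell1 was detected in 25 of 25 libraries, at 0.528 CPM in the lowest, 10.7 CPM in the median and 73.1 CPM in the highest. In Middle cumulus it had a count in 4 of 15 libraries, with a lowest and a median of 0 and a highest of 9.84 CPM. Nell1 thus had no count in most Middle libraries and spread over a wide range in the restricted ones, where 13 of 25 libraries lay above every Middle library. The mean was 16.0 ± 18.3 CPM (SD, n = 25) in CR and 1.25 ± 2.98 CPM (SD, n = 15) in Middle, a log2 difference of 3.55 ± 0.67 (SE) in the fit. Scara5 ran from 31.1 CPM through a median of 110 CPM to 256 CPM in CR cumulus. In Middle cumulus it ran from 5.75 CPM through a median of 14.5 CPM to 37.8 CPM. The groups of Scara5 touched only at their edges, with 22 of 25 CR libraries above every Middle library and 1 of 15 Middle libraries above the lowest CR library. The mean was 119 ± 69.4 CPM (SD, n = 25) in CR and 16.2 ± 8.87 CPM (SD, n = 15) in Middle, a log2 difference of 2.86 ± 0.30 (SE). Lrrtm3 ran from 0 through a median of 2.75 CPM to 48.9 CPM in CR cumulus, with a count in 20 of 25 libraries. In Middle cumulus it ran from 21.1 CPM through a median of 51.1 CPM to 110 CPM. Here the order was turned, and 23 of 25 CR libraries lay below every Middle library. The mean was 7.69 ± 10.97 CPM (SD, n = 25) in CR and 54.5 ± 24.996 CPM (SD, n = 15) in Middle, a log2 difference of -2.84 ± 0.43 (SE), which was -6.01 without mouse CR3. In a pool of cells, fewer cells with a transcript and less of it in each cell cannot be told apart.

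All 3 genes are among the genes called in this comparison by their choice, beside 3.60% of the 24657 genes tested. That share came from 887 called genes, which were 304 without mouse Middle2 and 1, Scara5, with counts summed per mouse. These counts come from the comparison that chose the 3 genes, and nothing about them is read from these. Nell1 averaged 16.7 CPM in mouse CR1, 21.99 CPM in CR2 and 11.8 CPM in CR3, against 0 in Middle1 and Middle3, 1.17 CPM in Middle2 and 2.95 CPM in Middle4. Scara5 averaged 121, 183 and 73.9 CPM in CR1, CR2 and CR3, against 9.95 to 22.04 CPM in the 4 Middle mice. Lrrtm3 averaged 1.42 CPM in CR1, 0.508 CPM in CR2 and 14.1 CPM in CR3, against 42.3 to 59.1 CPM in the Middle mice. The restricted mice were therefore not alike: CR3 held the lowest Scara5 and the highest Lrrtm3 of the restricted mice, and CR2 the reverse. The label of the mouse accounted for 73.7% of the variance of Lrrtm3 on the log2(CPM + 1) scale in CR cumulus.

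**Figure D1:**
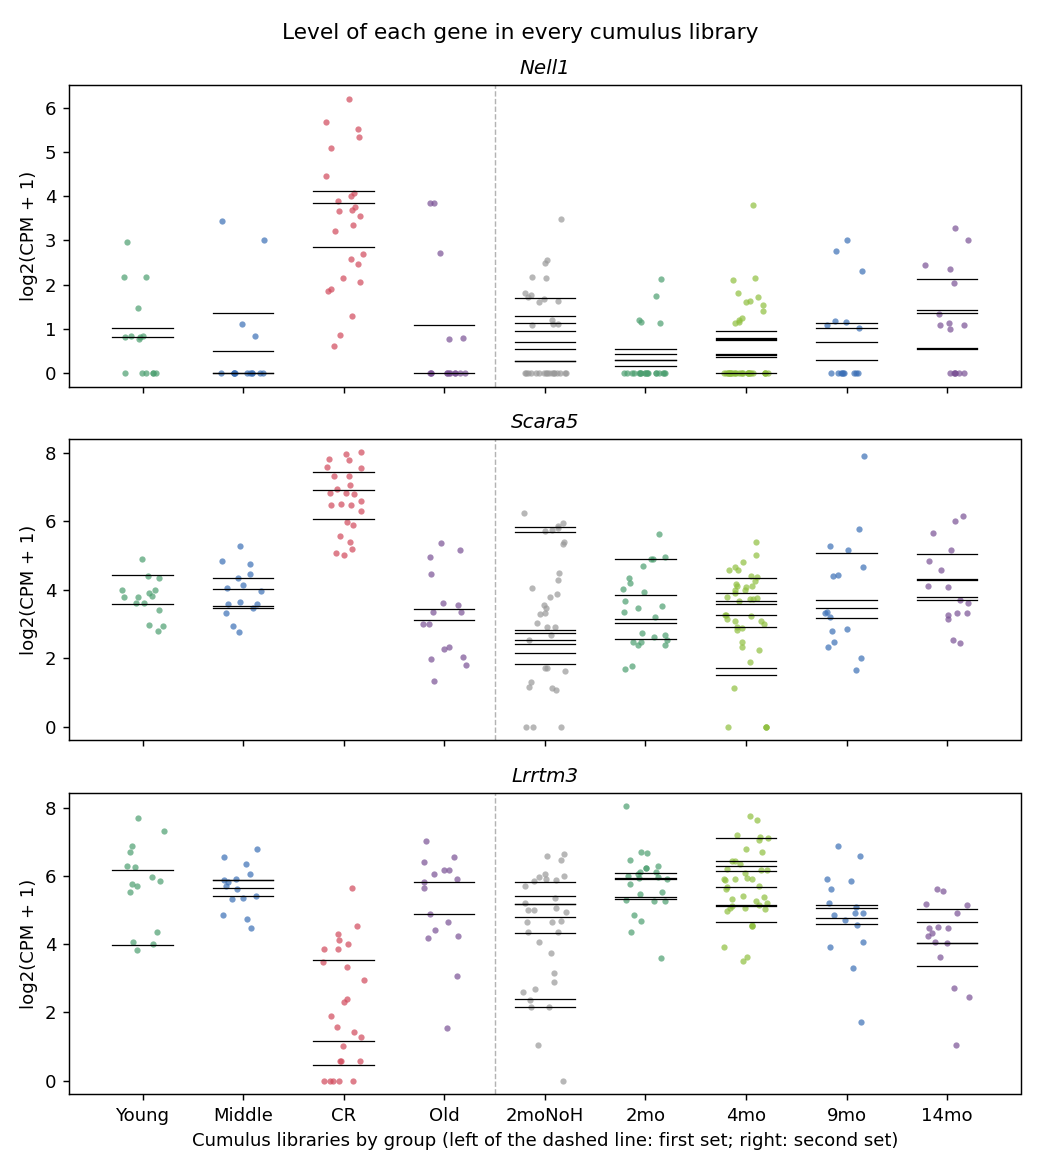
Each point is 1 cumulus library, each short line the mean of 1 mouse, and the vertical axis gives log2(CPM + 1) for Nell1, Scara5 and Lrrtm3 in the 9 groups. CR libraries of Scara5 lie between 31.1 and 256 CPM, as do 3 of 46 AL libraries of the first set and 19 of 128 libraries of the second set. CR libraries of Lrrtm3 extend down to 0.

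CR libraries also differed from Middle libraries in depth. Total counts per cumulus library ran from 1568223 to 2501005 in CR and from 848243 to 1269680 in Middle, so the diet and the depth or handling of these libraries cannot be told apart. The depth also bears on how often a low gene such as Nell1 gets a count. The summed level of 12 cumulus and granulosa markers ran from 4536 through a median of 7323 to 12189.6 CPM in CR and from 5459 through 7546 to 15109.9 CPM in Middle, with Inha at the highest CPM and none of the 12 at 0. Counts of called markers here stand beside 3.60% of all genes tested. Of the 12 cumulus and granulosa markers 2 were called lower in CR, the natriuretic peptide receptor Npr2 at a log2 difference of -0.41 ± 0.10 (SE) and the amino acid transporter Slc38a3 at -2.07 ± 0.60 (SE). The 13 oocyte markers, with Kit at the highest CPM, summed to 3.75, 12.6 and 405 CPM in the lowest, median and highest CR library and to 4.30, 21.1 and 36.2 CPM in Middle, and none of the 10 tested was called. Figla was at 0 in both groups, and Zp3, Mos and Dppa3 were also at 0 in Middle. The 7 leukocyte markers summed to 4.40, 10.5 and 123 CPM in CR, with Lyz2 highest, and to 1.73, 6.00 and 25.3 CPM in Middle, with Csf1r highest and Adgre1 at 0, and none of the 6 tested was called. The 6 endothelial markers, with Cdh5 highest, summed to 0, 5.35 and 11.02 CPM in CR, with Emcn at 0, and to 0, 7.62 and 24.7 CPM in Middle, with Tek at 0, and none of the 3 tested was called. The 9 theca and stroma markers, none at 0, summed to 14.9, 33.4 and 75.0 CPM in CR, with Cyp17a1 highest, and to 14.4, 26.6 and 165 CPM in Middle, with Ogn highest. Of these Cyp17a1 was called higher in CR and Col1a2 lower. The 7 luteal and preovulatory granulosa markers, with Hsd3b1 highest and none at 0, summed to 73.1, 231 and 899 CPM in CR and to 76.9, 280 and 1979.7 CPM in Middle, and 4 of 7 were called lower in CR (Ptgfr, Abcb1b, Sfrp4 and Lhcgr). Mouse Middle4 stood apart in Middle, with luteal markers at 1277 CPM against 156 to 279.5 CPM and theca and stroma markers at 110 CPM against 21.3 to 42.7 CPM in the other Middle mice. In CR1, CR2 and CR3 the luteal markers averaged 458, 370 and 176 CPM and the cumulus markers 6656, 9402 and 7120 CPM. In the same order oocyte markers averaged 19.9, 9.73 and 49.5 CPM, theca and stroma markers 44.9, 30.8 and 46.2 CPM and leukocyte markers 7.55, 24.2 and 14.8 CPM. The part of these markers in the levels of Nell1, Scara5 and Lrrtm3 was not tested.

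Across the first set, Scara5 fell in the order CR, Middle, Young (13.5 ± 5.86 CPM, SD, n = 15) and Old (12.4 ± 12.3 CPM, SD, n = 16). The step from CR to Middle is the one that chose the gene, and the steps among the 3 AL groups did not exceed the larger SD of each pair. Lrrtm3 fell in the order Young (71.0 ± 55.5 CPM, SD, n = 15), Middle, Old (49.4 ± 35.1 CPM, SD, n = 16) and CR, and its steps among the AL groups did not exceed the larger SD, while that from Old to CR rests on the CR level that chose the gene. Nell1 fell in the order CR, Old (2.11 ± 4.61 CPM, SD, n = 16), Young (1.29 ± 1.92 CPM, SD, n = 15) and Middle. Its steps among the AL groups did not exceed the larger SD either, and that from CR to Old again rests on the CR level. In the second set, no pair of neighbouring groups differed by more than the larger SD for any of the 3 genes. Scara5 there fell from 9mo (30.0 ± 57.4 CPM, SD, n = 16) through 14mo (22.9 ± 20.9 CPM, SD, n = 16), 2moNoH (18.5 ± 21.99 CPM, SD, n = 32) and 2mo (13.3 ± 11.5 CPM, SD, n = 24) to 4mo (12.2 ± 9.10 CPM, SD, n = 40). The mean of 9mo rests on 1 library of mouse 9mo21 at 238 CPM, since the median of that group was 9.12 CPM. Lrrtm3 fell from 4mo (66.1 ± 48.1 CPM, SD, n = 40) through 2mo (65.3 ± 48.3 CPM, SD, n = 24), 9mo (38.8 ± 30.8 CPM, SD, n = 16) and 2moNoH (33.6 ± 28.5 CPM, SD, n = 32) to 14mo (21.7 ± 13.9 CPM, SD, n = 16). Nell1 fell from 14mo (2.08 ± 2.69 CPM, SD, n = 16) through 2moNoH (1.40 ± 2.16 CPM, SD, n = 32), 9mo (1.33 ± 2.24 CPM, SD, n = 16) and 4mo (0.927 ± 2.18 CPM, SD, n = 40) to 2mo (0.393 ± 0.881 CPM, SD, n = 24). No AL group of either set thus reached the mean of CR for Nell1 or Scara5, or fell to it for Lrrtm3. The CR mean of Nell1 was 7.73 times that of 14mo, the nearest group of the second set on that ratio. For Scara5 it was 3.96 times that of 9mo, and the Lrrtm3 mean of 14mo was 2.82 times that of CR. Levels were scaled within each set, so ratios between the sets carry no test.

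AL libraries did reach the CR range. At or above the lowest CR library lay 18 of 46 AL libraries of the first set and 50 of 128 of the second set for Nell1. For Scara5 these were 3 of 46 and 19 of 128. At or below the highest CR library of Lrrtm3 lay 19 of 46 and 77 of 128. Fewer passed the CR median. For Nell1, 2 of 46 AL libraries of the first set and 1 of 128 of the second set exceeded the CR median. For Scara5, 0 of 46 and 1 of 128 exceeded it. For Lrrtm3, 1 of 46 and 4 of 128 lay below the CR median. Compared per kilobase of exon, which allows levels of different genes to be set side by side, Scara5 exceeded Lrrtm3 in 23 of 25 CR libraries and in 0 of 15 Middle libraries. The AL libraries in which it did so were 1 of 15 Young, 3 of 16 Old, 1 of 24 2mo, 1 of 40 4mo, 5 of 16 9mo, 7 of 16 14mo and 10 of 32 2moNoH. In all this was 28 of 174 AL libraries (16.1%). These shares were not tested. The CR and Middle levels chose the genes, Scara5 as higher and Lrrtm3 as lower in CR. Counts against the CR range or median, and the contrast of CR with the other groups, therefore describe the choice and support nothing.

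Without hyperovulation, mice 2moNoH6 and 2moNoH8 stood apart from the other 6. In all 4 libraries of each, Scara5 exceeded Lrrtm3 per kilobase, which makes 8 of the 10 such libraries in that group. Scara5 averaged 50.7 CPM in 2moNoH6 and 56.8 CPM in 2moNoH8, against 3.55 to 9.55 CPM in the other 6 mice. Lrrtm3 averaged 3.98 CPM and 6.46 CPM in them, against 25.8 to 60.2 CPM in the others. Nell1 averaged 1.44 CPM and 3.10 CPM, inside the range of 0.279 to 2.96 CPM of the others for 2moNoH6 and just above it for 2moNoH8. These mice thus paired high Scara5 with low Lrrtm3 as the CR mice did, at a lower Scara5 level and without the Nell1 level of CR. The libraries of both carry the prefix B1, as do those of 2moNoH7 and 2moNoH9, which did not show the pairing. The summed cumulus markers were 6409 CPM and 5518 CPM in them, within the 4121 to 7390 CPM of the other 6 mice. The summed luteal and preovulatory granulosa markers stood at 202 CPM and 266 CPM, above the 68.9 to 146 CPM of the others. In 2moNoH6 the endothelial markers, at 18.2 CPM against 2.43 to 7.56 CPM in those 6, and the leukocyte markers, at 17.7 CPM against 4.59 to 15.4 CPM, were also above them. The part of these markers in the levels of Scara5 and Lrrtm3 was not tested.

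**Figure D2:**
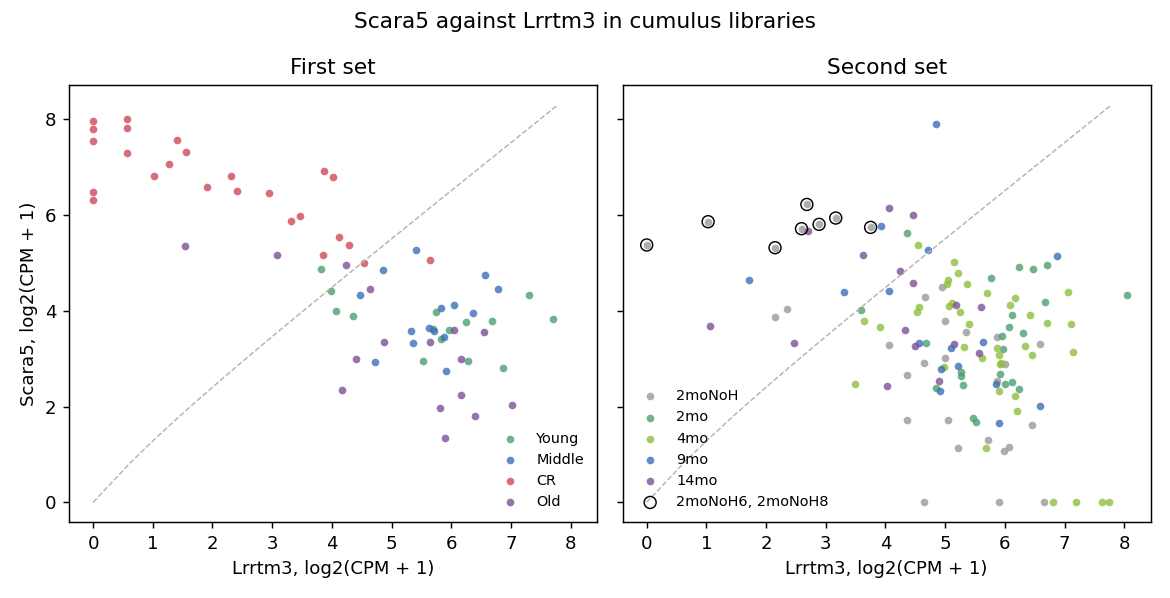
Each point is 1 cumulus library, with log2(CPM + 1) of Lrrtm3 on the horizontal and of Scara5 on the vertical axis, coloured by group, and the dashed line marks equal levels per kilobase of exon. In the first set 23 of 25 CR libraries lie above the line and 0 of 15 Middle libraries do, a contrast that follows from the choice of the genes. In the second set the circled libraries of mice 2moNoH6 and 2moNoH8, picked by these levels, all lie above it.

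The comparisons between ages asked whether the 3 genes move with reproductive age in freely fed mice, in libraries that took no part in the choice. Nell1 ran from 0 through a median of 0.745 CPM to 6.80 CPM in Young and from 0 through 0 to 13.4 CPM in Old. Scara5 ran from 5.96 CPM through 12.7 CPM to 28.5 CPM in Young and from 1.53 CPM through 8.11 CPM to 40.1 CPM in Old. Lrrtm3 ran from 13.2 CPM through a median of 56.1 CPM to 208 CPM in Young and from 1.91 CPM through 52.0 CPM to 128 CPM in Old. The ranges overlapped for each gene. Of the 3 genes 0 were called from Young to Old in the first set, where 3.96% of the genes tested were called. Nell1 gave a log2 difference of 0.58 ± 0.77 (SE, edgeR adjusted p = 0.768), Scara5 of -0.13 ± 0.35 (adjusted p = 0.907) and Lrrtm3 of -0.53 ± 0.37 (adjusted p = 0.499). The Young libraries of Lrrtm3 split by mouse, with a mean of 14.6 CPM in Young1 and 85.1 CPM in Young2, and the Old mice lay between them at 44.4 CPM for Old1_2 and 60.3 CPM for Old3. Without Old1_2 the difference of Nell1 was -3.81, without Young1 that of Scara5 was 0.076 and without Young2 that of Lrrtm3 was 1.74, each of opposite sign. With 2 mouse labels in each group an exact permutation test over mice cannot go below 0.333. Differences of the mouse means on the log2(CPM + 1) scale were -0.37 for Nell1, -0.72 for Scara5 and 0.27 for Lrrtm3, so Nell1 and Lrrtm3 had the other sign there. At 4 months Nell1 ran from 0 through a median of 0 to 12.8 CPM, Scara5 from 0 through 11.96 to 40.6 CPM and Lrrtm3 from 10.3 through 54.1 to 213 CPM, ranges that overlap those of 2mo widely. From 2mo to 4mo, 0 of 3 genes were called, beside 0.519% of all genes tested, with log2 differences of 0.87 ± 0.54 for Nell1 (SE, edgeR adjusted p = 0.518), -0.12 ± 0.28 for Scara5 (adjusted p = 0.899) and 0.023 ± 0.23 for Lrrtm3 (adjusted p = 0.985). Without mouse 2mo36 the difference of Scara5 was 0.32, and that of Lrrtm3 lay between -0.18 and -0.0063 without any 1 of 2mo1, 2mo2, 2mo35, 4mo26, 4mo28, 4mo3 and 4mo4. Scara5 gave 0.65 within B1 and -1.14 within B2, and Lrrtm3 gave -0.24 and 0.43. Nell1 at 9 months ran from 0 through a median of 0 to 7.08 CPM, Scara5 from 2.13 through 9.12 to 238 CPM and Lrrtm3 from 2.29 through 29.3 to 117 CPM, with the ranges again overlapping those of 2mo. From 2mo to 9mo, 0 of 3 were called, beside 1.92% of all genes, with log2 differences of 1.36 ± 0.60 for Nell1 (SE, edgeR adjusted p = 0.248), 1.13 ± 0.43 for Scara5 (adjusted p = 0.162) and -0.75 ± 0.29 for Lrrtm3 (adjusted p = 0.178). The value of Scara5 was 0.14 without mouse 9mo21, 2.26 within B1 and -0.39 within B2. The two-sided exact permutation tests over the means of 5 and 4 mice, added after the data were seen, gave p = 0.0476 for Nell1 and p = 0.0159 for Lrrtm3, the latter the smallest it allows. In the other alternatives, none of which passed the threshold, Nell1 ran from 0.68 to 1.87 and Lrrtm3 from -0.85 to -0.51. Of the luteal and preovulatory granulosa markers, 3 of 7 were higher in Old than in Young and 6 of 7 higher in 9mo than in 2mo. The theca markers Ogn and Cyp17a1 were higher in 9mo than in 2mo, the leukocyte marker Cd68 higher in 4mo than in 2mo and the oocyte marker Zp3 lower in Old than in Young. The part of these markers in the age differences was not tested.

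From 2mo to 14mo, 1 of 3 genes was called, beside 1.70% of all genes. Lrrtm3 ran from 11.01 CPM through a median of 61.3 CPM to 262 CPM at 2 months and from 1.08 CPM through 20.01 CPM to 47.8 CPM at 14 months. The ranges of the libraries overlapped, but the mice did not: means lay at 43.7 to 84.6 CPM in the 5 mice of 2mo and at 15.5 to 34.4 CPM in the 5 mice of 14mo. Lrrtm3 fell by a log2 difference of -1.58 ± 0.29 (SE, edgeR adjusted p = 0.00118). A two-sided exact permutation test over the means of 5 and 5 mice, added after the data were seen and not adjusted over genes, gave p = 0.00794, the smallest it allows. Within B1 the log2 difference of Lrrtm3 was -1.76 (adjusted p = 0.0187), and within B2, with 2 mice in each group, it was -1.32 (adjusted p = 0.142). Nell1 had a count in 5 of 24 libraries at 2 months and in 10 of 16 at 14 months, with highest values of 3.39 CPM and 8.68 CPM. Its log2 difference was 1.91 ± 0.57 (SE, edgeR adjusted p = 0.0671), which misses the threshold. It passed without mouse 14mo38 (2.05, adjusted p = 0.0482) or without 14mo40 (2.21, adjusted p = 0.0487). Without 2mo35 the difference was 2.26, but fewer than 5 libraries of 2mo then held a Nell1 count. Nell1 then passed the filter through 14mo alone, so its call there is not counted. Nell1 gave 2.62 within B1 (adjusted p = 0.0746) and 0.94 within B2 (adjusted p = 0.721), and the exact permutation test over its mouse means gave p = 0.00794. Scara5 ran from 2.19 CPM through a median of 9.62 CPM to 48.3 CPM at 2 months and from 4.38 CPM through 13.9 CPM to 70.1 CPM at 14 months, a log2 difference of 0.78 ± 0.34 (SE, edgeR adjusted p = 0.254). The value of Scara5 was 1.82 within B1 (adjusted p = 0.0159) and -0.55 within B2 (adjusted p = 0.587), and over all libraries it passed the threshold without mouse 2mo36 (1.23, adjusted p = 0.0409). At 14 months 3 of 7 tested theca and stroma markers (Cyp17a1, Ogn and Col3a1), 2 of 7 luteal markers and the leukocyte gene Lyz2 were higher than at 2 months, 2 of 12 cumulus markers (Slc38a3 and Fshr) were lower, and their part was not tested.

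Hyperovulation at 2 months was compared in 32 libraries of 2moNoH and 24 of 2mo, and 1 of 3 genes was called, beside 13.2% of all genes tested. Lrrtm3 ran from 0 through a median of 27.1 CPM to 99.5 CPM without hyperovulation, against 11.01, 61.3 and 262 CPM with it. The ranges overlapped widely. Lrrtm3 was higher with hyperovulation by a log2 difference of 0.96 ± 0.29 (SE, edgeR adjusted p = 0.0198). The exact permutation test over 8 and 5 mouse means gave p = 0.0124. The call was lost without mouse 2mo34 (0.73, adjusted p = 0.186), with counts summed per mouse (0.92, adjusted p = 0.346) and within B2 (0.59, adjusted p = 0.441), while within B1 the difference was 1.27 (adjusted p = 0.0444). Without 2moNoH6 and 2moNoH8 the difference was 0.59 (adjusted p = 0.104). That pair was picked after the data were seen, by its low Lrrtm3, so leaving it out lowers the difference by construction and decides nothing. Scara5 ran from 0 through a median of 8.83 CPM to 73.7 CPM without hyperovulation, against 2.19, 9.62 and 48.3 CPM with it. Its log2 difference was -0.47 ± 0.39 (SE, edgeR adjusted p = 0.473), and its sign differed between the prefixes, at -1.83 within B1 (adjusted p = 0.00552) and 1.76 within B2 (adjusted p = 0.0248). It was 0.037 without 2moNoH8, and without both 2moNoH6 and 2moNoH8 it was 0.92 (adjusted p = 0.0576). Nell1 had a count in 15 of 32 libraries without and 5 of 24 with hyperovulation, and its log2 difference of -1.47 ± 0.53 (SE, edgeR adjusted p = 0.0543) missed the threshold. Nell1 passed the threshold without any 1 of 2moNoH10 (-1.61, adjusted p = 0.0333), 2moNoH11 (-1.54, adjusted p = 0.0493), 2moNoH7 (-1.60, adjusted p = 0.0324) and 2moNoH9 (-1.54, adjusted p = 0.0450). Without 2mo35 the difference was -1.82, but fewer than 5 libraries of 2mo then held a Nell1 count. Nell1 then passed the filter through 2moNoH alone, so its call there is not counted. The difference of Nell1 was -1.84 within B1 (adjusted p = 0.0978) and -0.97 within B2 (adjusted p = 0.565). The summed cumulus markers moved too, from 5655 ± 1584 CPM (SD, n = 32) without to 7390 ± 1558 CPM (SD, n = 24) with hyperovulation, with 5 of 12 called higher (Npr2, Cyp19a1, Foxl2, Inhba and Fshr) and Slc38a3 lower, Inha at the highest CPM and none at 0 in either group. Markers of other cells were called with hyperovulation as well. Of 7 theca and stroma markers tested, the smooth muscle actin Acta2 was lower, at a log2 difference of -3.40 ± 0.72 (SE), and the list, with Ogn highest, summed to a median of 37.9 CPM without and 26.9 CPM with hyperovulation. Of 7 luteal and preovulatory granulosa markers, with Hsd3b1 highest and none at 0, Star was lower at -0.62 ± 0.20 (SE), while their summed median was 88.0 CPM without and 167 CPM with hyperovulation. Of 4 endothelial markers tested, Cdh5 was higher at 2.14 ± 0.45 (SE), with summed medians of 3.99 CPM without hyperovulation, Pecam1 highest, and 7.22 CPM with it, Cdh5 highest. Of 5 oocyte markers tested, Ooep was higher at 1.64 ± 0.44 (SE) and Zp1 lower at -1.97 ± 0.53 (SE), with Kit highest and summed medians of 19.2 and 15.3 CPM. Of 3 leukocyte markers tested, 0 were called, with Cd68 highest and summed medians of 11.3 and 7.07 CPM. The markers at 0 were Lum without and Dcn with hyperovulation among theca and stroma, Tek and Emcn with it among endothelium, and Adgre1 without it and Tyrobp in both groups among leukocytes. Among oocyte markers Mos, Dppa3 and Figla were at 0 in both groups, Nlrp5 without hyperovulation and Bmp15 and Zp2 with it. The part of all these markers in the differences of Lrrtm3, Scara5 and Nell1 was not tested.

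Within several groups the 3 genes were related across libraries. These correlations use log2(CPM + 1), are descriptions over libraries of a few mice that share their mouse and depth, and are given without p for 27 pairs of genes and groups. Over the 25 CR libraries, Nell1 and Scara5 had r = 0.728 (Spearman's rho = 0.701), which was 0.672 without the 2 libraries farthest from the median and 0.745 after the means of the mice were subtracted. The CR mice stood apart from each other in Scara5 and Lrrtm3, so this pair is given within mice, where the value after subtraction of the mouse means was -0.524: r was -0.737 over 13 libraries of CR3 and 0.194 over 9 libraries of CR2, where Lrrtm3 averaged 0.508 CPM. Nell1 and Scara5 had r = 0.815 in CR3 and 0.619 in CR2. Among AL groups, the pair Nell1 and Scara5 reached r = 0.734 in Old, 0.732 in 14mo, 0.642 in 9mo and 0.608 in Middle, lay between -0.227 and 0.124 in Young, 2mo and 4mo, and was 0.299 with the mouse means subtracted in 2moNoH, where 2 mice stood apart in Scara5 and Lrrtm3. The value in Middle dropped to 0.355 and that in Old to 0.475 without the 2 farthest libraries. Scara5 and Lrrtm3 had r = -0.722 in Old (-0.481 without the 2 farthest), -0.517 in 4mo, which was -0.313 after the mouse means were subtracted, and -0.465 in 2moNoH, given only with the mouse means subtracted. In Young, where the 2 mice stood apart in Lrrtm3, it was 0.065 with the mouse means subtracted. In Middle and 2mo the same pair had r = 0.108 and 0.170, and in 9mo and 14mo -0.353 (rho = -0.535) and -0.147 (rho = -0.276). Nell1 and Lrrtm3 had -0.532 in CR with the mouse means subtracted, from r = -0.636 over 13 libraries of CR3 and -0.304 over 9 of CR2. In Old this pair had r = -0.771 (rho = -0.515) and in 9mo -0.651 (rho = -0.609), which dropped to -0.333 and -0.391 without the 2 farthest libraries. With the mouse means subtracted it was -0.355 in 2moNoH and 0.305 in Young. In the other groups r of Nell1 and Lrrtm3 was -0.229 in 2mo, -0.185 in 4mo and 0.163 in Middle, each of opposite sign without the 2 farthest libraries, and with the mouse means subtracted these were -0.193, -0.399 and 0.351. In 14mo it was -0.034.

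In oocytes the 3 genes were found at other levels than in cumulus cells. At 2 months of the second set, Lrrtm3 ran from 8.25 CPM through a median of 12.4 CPM to 22.5 CPM in oocytes, Nell1 from 0.425 CPM through 2.19 CPM to 5.62 CPM, and Scara5 had a single count in 1 of 24 libraries. Nell1 was thus found in every oocyte of that group and in few cumulus pools, while Scara5 was nearly confined to cumulus. Median total counts were 2118731 per 2mo oocyte library and 854936 per 2mo cumulus library, and this depth bears on how often Nell1 gets a count. From oocyte to cumulus, Nell1 and Lrrtm3 were called, beside 88.4% of all genes tested. Scara5 passed the filter through its cumulus libraries alone, so its call follows from the filter and is not counted. Nell1 fell by a log2 difference of -2.52 ± 0.40 (SE, edgeR adjusted p = 7.29e-08), and Lrrtm3 rose by 1.97 ± 0.19 (adjusted p = 4.43e-14). For Scara5, 280 counts in cumulus against 1 count in oocytes gave, per total count, a ratio of 703 (95% exact interval 125 to 27861, for counting error only). Per kilobase, Lrrtm3 was the highest of the 3 genes in 2mo oocytes at 3.10 CPM per kb, followed by Nell1 at 0.319 CPM per kb and Scara5 at 0.00301 CPM per kb. In 2mo cumulus the order was Lrrtm3 at 15.4, Scara5 at 2.18 and Nell1 at 0.0540 CPM per kb. In CR cumulus it was Scara5 at 19.5, Nell1 at 2.21 and Lrrtm3 at 1.81 CPM per kb.

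Nell1 averaged between 2.32 and 3.27 CPM and Lrrtm3 between 12.7 and 16.1 CPM in oocytes of the 8 AL groups, and in oocytes of either set no pair of neighbouring groups differed by more than the larger SD for any of the 3 genes. The age and hyperovulation differences of Lrrtm3 in cumulus were set against those in oocytes by an interaction with cell type, added after the data were seen. From 2mo to 14mo the log2 difference of Lrrtm3 was 0.04 in oocytes, and that in cumulus was lower by -1.63 ± 0.32 (SE, edgeR adjusted p = 0.00178, with 0.745% of 28878 genes called). For hyperovulation it was -0.28 in oocytes, and that in cumulus was higher by 1.25 ± 0.32 (SE, edgeR adjusted p = 0.00838, with 4.05% of 30006 genes called). Without mice 2moNoH6 and 2moNoH8, picked by their low Lrrtm3 in cumulus, the latter was 0.81 ± 0.29 (adjusted p = 0.0881). These fits take the oocyte and cumulus libraries of 1 complex as independent. With counts summed per mouse and the mouse as a block, the age value of Lrrtm3 was -1.47 (adjusted p = 6.37e-07) and the hyperovulation value 1.32 (adjusted p = 0.190), so the latter call was lost. Two-sided exact permutation tests over the difference between cumulus and oocyte means of each mouse gave p = 0.00794 for age and p = 0.00155 for hyperovulation, each the smallest it allows and not adjusted over genes. Neither interaction was called for Nell1 (adjusted p = 0.381 and 0.216) or Scara5 (adjusted p = 0.890 and 0.604), and a p that misses the threshold does not show that the cell types moved alike.

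Oocytes of CR mice, which took no part in the choice although they come from the same complexes, differed from Middle oocytes in 2 of 3 genes, beside 30.0% of all genes tested. Total counts per oocyte library ran from 2752043 to 4536690 in CR and from 1903858 to 2624876 in Middle, with no overlap, so the diet and the depth cannot be told apart here either. Lrrtm3 ran from 10.2 CPM through a median of 20.5 CPM to 37.1 CPM in CR oocytes and from 4.27 CPM through 12.6 CPM to 21.5 CPM in Middle oocytes. It was higher in CR by a log2 difference of 0.64 ± 0.17 (SE, edgeR adjusted p = 0.00250), opposite in sign to the difference in the cumulus cells around them. With counts summed per mouse the log2 difference was 0.82 (adjusted p = 0.0787). Lrrtm3 in oocytes averaged 21.7 CPM in CR and 13.7 CPM in Middle. These means amounted to 283% of the cumulus level in CR and 25.1% in Middle, with each cell type scaled on its own. The cumulus levels in this ratio and in that of Nell1 below chose the genes, so the contrast between CR and Middle in these ratios supports nothing. Nell1 ran from 0 through 1.98 CPM to 9.05 CPM in CR oocytes and from 0.844 CPM through 2.62 CPM to 4.64 CPM in Middle oocytes, a log2 difference of -0.093 ± 0.32 (SE, edgeR adjusted p = 0.863). Its sign turned without mouse CR1 (0.024), CR3 (0.23) or Middle2 (0.13), and with the left-out complex added back (0.060). Its oocyte level was 15.5% of the cumulus level in CR and 207% in Middle. Scara5 had a count in 24 of 27 CR oocytes and 6 of 14 Middle oocytes, with medians of 1.29 CPM and 0 and highest values of 15.2 CPM and 2.56 CPM. It was higher in CR oocytes by a log2 difference of 2.23 ± 0.64 (SE, edgeR adjusted p = 0.00557). It was 3.40 without mouse Middle1. The call of Scara5 was lost without mouse Middle2 (2.01, adjusted p = 0.0676) or Middle4 (1.78, adjusted p = 0.0545), with counts summed per mouse (2.56, adjusted p = 0.0525) and with the left-out complex of Middle3 added back (1.17, adjusted p = 0.162). An exact permutation test over 3 and 4 mice cannot go below 0.0571, and it gave p = 0.0571 for Lrrtm3, 0.114 for Scara5 and 0.686 for Nell1.

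Oocyte libraries also held counts of cumulus markers. The summed cumulus markers in oocyte libraries amounted to 4.03% of their level in cumulus libraries in CR and 4.53% in Middle. These are ratios of means, and the sum in CR oocytes had a mean of 317 CPM and a median of 197 CPM. In 2mo oocytes of the second set Nr5a2 alone averaged 58.4 CPM of a summed mean of 97.0 CPM. The part of Nr5a2 in the percentages was not tested. Scara5 in oocyte libraries amounted to 2.47% of its cumulus level in CR and 3.58% in Middle, over cumulus levels that chose the gene. Over the 27 CR oocyte libraries, Scara5 and the summed cumulus markers had r = 0.821 (rho = 0.750) on the log2(CPM + 1) scale, and 0.784 without the 2 libraries farthest from the median of the markers. Over the 14 Middle oocyte libraries r was 0.503 (rho = 0.472) and 0.745 without the 2 farthest. Both values come from libraries of 3 and 4 mice and are descriptions. None of the 12 cumulus markers was at 0 over the oocyte libraries of CR or of Middle, and Inha had the highest CPM. Markers were also called between CR and Middle oocytes, where 30.0% of all genes tested were called, and counts near that share say nothing about the markers. Of the luteal markers, 6 of 7 were lower in CR, with 84.6, 109 and 183 CPM in the lowest, median and highest CR library and 71.9, 115 and 1573 CPM in Middle. Of 8 theca and stroma markers tested, 5 were lower and 1 higher in CR, with sums of 1.05, 4.82 and 12.1 CPM in CR and 0.397, 3.57 and 84.4 CPM in Middle. Of 5 endothelial markers tested, 2 were higher (Tek and Pecam1), with sums of 93.9, 126 and 144 CPM in CR, where Emcn was at 0, and 68.3, 85.4 and 120 CPM in Middle. In Middle oocytes Pecam1 alone averaged 69.1 CPM of a summed mean of 88.9 CPM, against a summed mean of 9.35 CPM in Middle cumulus. The sum of this list in oocytes is therefore not read as RNA of endothelium. Of the 12 cumulus markers, Nr5a2 and Kitl were higher and Foxl2 and Slc38a3 lower in CR, with sums of 115, 197 and 1264 CPM in CR and 107, 208 and 1550 CPM in Middle. Of the 13 oocyte markers, with Gdf9 highest and none at 0, Nlrp5 (0.73 ± 0.17, SE) and Dppa3 (0.30 ± 0.09, SE) were higher and Mos, Zp3, Figla and Ooep lower, by log2 differences between -0.37 and -0.33, with sums of 11702, 23563 and 27482 CPM in CR and 15564, 20957 and 25113 CPM in Middle. Of 3 leukocyte markers tested, Cd68 was higher at 1.55 ± 0.52 (SE), with Csf1r highest and sums of 3.67, 9.88 and 19.3 CPM in CR, where Tyrobp was at 0, and 6.83, 10.3 and 20.7 CPM in Middle. The part of these markers and of cumulus RNA in the oocyte differences of Scara5 and Lrrtm3 was not tested further.

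Known partners of the 3 proteins were taken as lists. The counts of called genes in these lists stand beside shares of all genes tested that were called, which were 3.60% between Middle and CR, 3.96% from Young to Old, 0.519%, 1.92% and 1.70% from 2mo to 4mo, 9mo and 14mo, and 13.2% with hyperovulation. Of 7 other NELL ligands and receptors, 5 were tested between Middle and CR, and 1 was called, the integrin subunit Itgb1, higher in CR at a log2 difference of 0.33 ± 0.09 (SE). The receptor gene Ros1 was at 0 in both groups, as was Robo3. The median of the tested genes of that list, with Nell1, was 0.31, against 0.035 over all genes. From 2mo to 4mo, 9mo and 14mo and from Young to Old, none of the other genes of that list was called, and with hyperovulation Itgb1 was called lower (-0.53 ± 0.12) and Robo2 higher (1.23 ± 0.29). Of the 4 other class A scavenger receptors, 1 passed the filter between Middle and CR and it was not called, and Marco was at 0 in cumulus cells of every group. None of the other class A receptors was called between ages or with hyperovulation. Of 21 genes of ferritin and iron handling, 20 were tested. Steap3, a reductase that acts on iron in endosomes, was called lower in CR at -0.51 ± 0.14 (SE), and 0 were called higher, with a median of -0.032. The summed level of that list was 2138 ± 141 CPM (SD, n = 25) in CR and 2136 ± 137 CPM (SD, n = 15) in Middle. The ferritin chains Fth1 and Ftl1 were both lower in Old than in Young, by -0.29 ± 0.07 (SE, edgeR adjusted p = 0.00723) and -0.35 ± 0.10 (adjusted p = 0.0337), where Scara5 was not called. None of that list was called at the later ages of the second set, and 3 of 20 were called higher and 3 lower with hyperovulation. Of 10 partners and relatives of Lrrtm3, 6 were tested between Middle and CR and 1 was called, the neurexin Nrxn3, lower in CR like Lrrtm3, at -2.75 ± 0.53 (SE). The median of the tested genes of that list, with Lrrtm3, was -0.082. The glypican Gpc4 was called higher from 2mo to 9mo (0.58 ± 0.16, edgeR adjusted p = 0.0459) and lower with hyperovulation (-0.74 ± 0.16, adjusted p = 0.000737), and the neuroligin Nlgn2 was called higher with hyperovulation (0.71 ± 0.21, adjusted p = 0.0166). Of 3 alpha catenins, 0 were called between Middle and CR or between ages, and Ctnna2 was called higher with hyperovulation. Values for Middle against CR in these lists come from the comparison that chose the 3 genes and support nothing about them.

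The genes most like each of the 3 were ranked by r of log2(CPM + 1) over the 71 cumulus libraries of the first set, among 12062 genes. The CR libraries dominate this measure, and the CR and Middle libraries in it are those that chose the 3 genes. The ranks of Nell1 and Scara5 for each other rest on that choice and support nothing. Brackets give r, then that after subtraction of the group means and that over the 128 libraries of the second set. Nell1 was most like the dystroglycan gene Dag1 (r = 0.817, then 0.687 and 0.435) and next most like Scara5 (0.813, then 0.611 and 0.332). These were followed by Serpine2 (0.785, then 0.607 and 0.263), Gtf2a1 (0.781, then 0.666 and 0.355) and Pdia3 (0.781, then 0.660 and 0.482). Dag1, Gtf2a1 and Pdia3 exceeded Scara5 after the subtraction and in the second set, while Serpine2 did not. Scara5 was most like Nell1, followed by the chaperone genes Hsph1 (0.813, then 0.540 and 0.137) and P4hb (0.803, then 0.444 and 0.289). Next came Dag1 (0.794, then 0.662 and 0.381) and the calcium-binding chaperone of the endoplasmic reticulum Calr (0.791, then 0.742 and 0.584). Calr and Dag1 exceeded Nell1 after the subtraction and in the second set, while Hsph1 and P4hb did not. Lrrtm3 was most like Arhgef28 (0.794, then 0.646 and 0.564) and Arhgap18 (0.793, then 0.647 and 0.455), followed by Myocd, Adgrf5 and the bone morphogenetic protein receptor Bmpr1b.

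On the mouse genome (GRCm38), Nell1 (ENSMUSG00000055409) spans chr7:49974864-50866608 on the + strand with 7271 bases of exon, Scara5 (ENSMUSG00000022032) chr14:65666403-65764826 on the + strand with 6093 bases, and Lrrtm3 (ENSMUSG00000042846) chr10:63928472-64090277 on the - strand with 4251 bases. Lrrtm3 lies inside the span of Ctnna3, an alpha catenin of cell junctions, at chr10:63430098-65003667 on the + strand. The span of Nell1 holds the antisense gene Nell1os and 4933405O20Rik. No exon of Nell1, Scara5 or Lrrtm3 overlaps an exon of another gene in the annotation, and whether counting used strand is not given in the sources used here. Counts that were not whole, a sign of reads shared with other places, made up 17.9% and 14.2% of the libraries with a Nell1 count in the 2 sets and 5.67% and 3.94% of those with a Lrrtm3 count, while Scara5 had none. Nell1 values therefore hold some shared reads.

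Ctnna3, the gene around Lrrtm3, was low in cumulus cells. It ran from 0 through a median of 1.05 CPM to 6.89 CPM in CR cumulus and from 0 through 2.73 CPM to 8.60 CPM in Middle, and was not called there, at a log2 difference of -0.88 ± 0.50 (SE). From 2mo to 14mo it gave -0.71 ± 0.43 (SE, edgeR adjusted p = 0.467). In oocytes Ctnna3 was lower in CR than in Middle by -0.53 ± 0.11 (SE, edgeR adjusted p = 0.000230), where Lrrtm3 was higher. Between oocyte and cumulus they also went opposite ways, with Ctnna3 lower in cumulus by -3.78 ± 0.18 (SE, edgeR adjusted p = 3.25e-28).

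**Figure D3:**
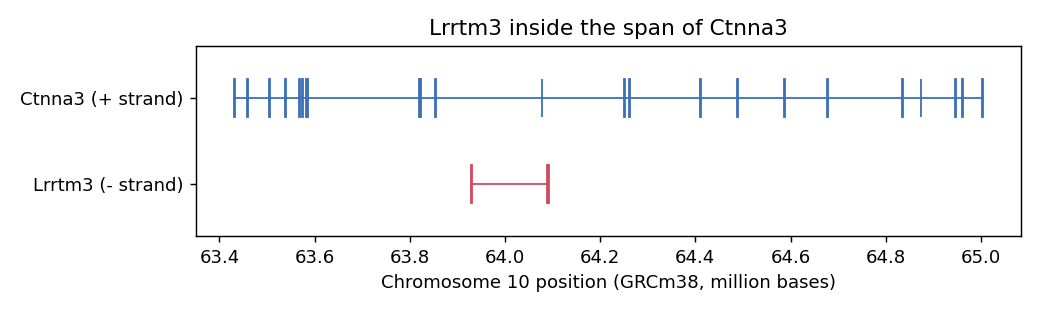
The horizontal axis gives the position on chromosome 10 of GRCm38 in megabases (Mb), lines mark the spans of Ctnna3 and Lrrtm3, and boxes their exons. Lrrtm3, on the - strand from 63928472 to 64090277, lies inside Ctnna3 on the + strand, and no exons overlap.

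Promoter windows are shown because Nell1 and Lrrtm3 moved in opposite directions in CR cumulus. RefSeq promoter windows of GRCm38.p6, from 250 bases before to 50 bases after the start, were found for 2 of 3 genes, Nell1 at chr7:49975100-49975399 on the + strand and Lrrtm3 at chr10:64090206-64090505 on the - strand. The annotation behind the spans above starts Nell1 earlier, with a first exon from 49974864 to 49975443. On that annotation the Nell1 window lies inside the first exon. They were searched on both strands for exact matches to 8 motifs, printed in capitals: a forkhead (FOXO) motif GTAAACA, an NR5A motif CAAGGTCA, the cyclic AMP response element TGACGTCA, the AP-1 motif TGACTCA, the E-box CACGTG, the TATA motif TATAAA, the CCAAT box CCAAT and the GC box GGGCGG.
Nell1: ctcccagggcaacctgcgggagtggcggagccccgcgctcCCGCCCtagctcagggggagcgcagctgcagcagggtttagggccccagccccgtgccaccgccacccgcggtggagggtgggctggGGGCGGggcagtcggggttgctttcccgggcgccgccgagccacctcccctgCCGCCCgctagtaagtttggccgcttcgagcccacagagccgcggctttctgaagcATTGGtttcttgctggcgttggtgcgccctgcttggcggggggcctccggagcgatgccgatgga
Lrrtm3: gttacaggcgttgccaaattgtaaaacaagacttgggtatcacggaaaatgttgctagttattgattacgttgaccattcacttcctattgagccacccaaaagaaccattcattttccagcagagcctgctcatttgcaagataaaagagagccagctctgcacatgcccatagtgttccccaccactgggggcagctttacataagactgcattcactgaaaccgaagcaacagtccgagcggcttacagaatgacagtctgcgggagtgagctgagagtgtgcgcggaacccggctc
The Nell1 window is GC-rich, at 72.3% G and C, above 93.9% of the 32851 windows of all genes, and holds 3 GC boxes and 1 CCAAT box, the latter as ATTGG on the shown strand. The Lrrtm3 window has 48.7% G and C, above 35.6% of all windows, and holds no match to the 8 motifs. Of all windows 35.7% held a GC box, 37.4% a CCAAT box, 13.6% the TATA motif, 7.15% the E-box, 5.20% the AP-1 motif, 3.65% the forkhead motif, 1.79% the cyclic AMP response element and 1.56% the NR5A motif. None of the matches in the Nell1 window overlap. A match describes letters in the window and not a bound site.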

How the data were processed

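RamDA-seq reads of single oocytes and cumulus pools were aligned by the authors to the mouse genome GRCm38 with HISAT2 2.0.5 and counted on GENCODE genes with featureCounts 1.5.1, versions as in the submitters' processing notes. The authors deposited estimated counts per gene, of which 36.8% and 35.1% of the nonzero values in the 2 sets were not whole because reads with several matches were shared, and RPKM. Counts were rounded to whole numbers here, and CPM were computed with TMM factors within each set and cell type. The deposited RPKM followed from the counts within 1% for 100% of ad libitum values and 7.46% of CR values, so RPKM served as an alternative only. Comparisons used edgeR 4.0.16 in R 4.3.3 with libraries as units, tested each gene counted in 5 or more libraries, and adjusted p over all these genes (Benjamini-Hochberg, threshold 5%). DESeq2 1.42.0, other filters, sums per mouse and left-out mice were alternatives. The fits were also run on simulated data drawn without differences between mice. Such data say nothing about p-values over libraries that share a mouse. Exact permutation tests were two-sided and used the mean log2(CPM + 1) of each mouse. The 3 genes and all gene lists were chosen with earlier results of these data known.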

Additional observations from a re-analysis of the deposited data

Results flagged for a closer look

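Mouse means of the 3 genes were screened for a mouse far from the others. Of 36 combinations of gene, group and cell type, 6 held such a mouse, and chance alone gives about 1 in 20. For Scara5 in cumulus, mouse 9mo21 averaged 74.7 CPM against 19.0 CPM in the next of 4 mice, through 1 library at 238 CPM. For Nell1 in cumulus, mouse 4mo26 averaged 3.21 CPM against 1.01 CPM in the next of 8 mice. For Lrrtm3 in cumulus, mouse Middle4 averaged 42.3 CPM, below 57.9 CPM in the next of 4 mice, and its luteal markers, at 1277 CPM against 156 to 279.5 CPM, and theca markers, at 110 CPM against 21.3 to 42.7 CPM, were the highest of the 4. For Lrrtm3 in oocytes, mouse Middle3, with 1 library, stood at 4.27 CPM, below 14.1 CPM in the next of 4 mice. For Scara5 in oocytes, mouse 9mo22 averaged 0.467 CPM against 0.123 CPM in the next of 4 mice, from 4 counts in all, and mouse 2mo34 averaged 0.0551 CPM against 0 in the other 4 mice, from 1 count.

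In fits over libraries, the difference of Lrrtm3 with age and with hyperovulation was not the same in the cell types of the second set. From 2 to 14 months the log2 difference in cumulus was lower than that in oocytes by -1.63 (edgeR adjusted p = 0.00178). With hyperovulation it was higher by 1.25 (edgeR adjusted p = 0.00838), and by 0.81 (adjusted p = 0.0881) when mice 2moNoH6 and 2moNoH8, picked by their low Lrrtm3, were left out. With counts summed per mouse the age value was -1.47 (adjusted p = 6.37e-07) and the hyperovulation value 1.32 (adjusted p = 0.190).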

How the results depend on the processing

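Of 521 alternatives, 427 kept direction and, where a p was given, side of the threshold, and in counts of called genes a move within 1.5 times counts as kept. For each of the 3 genes, 14 of the alternatives are from Middle to CR in cumulus. These have no p and come from the comparison that chose the genes, so those kept there support nothing. Another 10, of Scara5 from oocyte to cumulus, rest on a call that follows from the filter. Values within the title prefixes B1 and B2, exact permutation tests over mouse means, deposited RPKM, the fit without 2moNoH6 and 2moNoH8 and the interactions with their block and per-mouse forms were chosen after seeing the data. Mice 2moNoH6 and 2moNoH8 were picked by their Scara5 and Lrrtm3 levels, so fits without them move these genes by construction. Unless said otherwise the cause of a change was not tested. A gene near 1 CPM rests on about 1 count per cumulus library of most groups, which limits Nell1 there, and on about 2 counts in most oocyte libraries, which limits Scara5.

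With mice left out in turn, the log2 difference from Middle to CR in cumulus ran from 3.14 to 4.62 for Nell1, 2.35 to 3.37 for Scara5 and -6.01 to -2.23 for Lrrtm3, and deposited RPKM gave 3.57, 2.82 and -2.83. From Young to Old it ran from -3.81 to 1.09 for Nell1, -0.79 to 0.076 for Scara5 and -0.79 to 1.74 for Lrrtm3. From 2mo to 4mo it ran from -0.29 to 0.32 for Scara5 and -0.18 to 0.28 for Lrrtm3. From 2mo to 14mo it ran from 1.61 to 2.26 for Nell1, 0.62 to 1.23 for Scara5 and -1.72 to -1.34 for Lrrtm3. With hyperovulation it ran from -1.82 to -1.17 for Nell1, -0.91 to 0.037 for Scara5 and 0.73 to 1.13 for Lrrtm3. In oocytes from Middle to CR it ran from -0.71 to 0.23 for Nell1 and 1.78 to 3.40 for Scara5.

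From 2mo to 4mo, Lrrtm3 was -0.00488 with the prefix as a covariate and -0.24 within B1, and Scara5 was 0.65 within B1. From 2mo to 9mo, the exact permutation test gave differences of 0.44 for Nell1 (p = 0.0476) and -0.84 for Lrrtm3 (p = 0.0159), and Scara5 was -0.39 within B2. From 2mo to 14mo, the exact permutation test gave 0.87 for Nell1 (p = 0.00794), Scara5 was 1.82 within B1 and -0.55 within B2, and Lrrtm3 was -1.32 within B2. With hyperovulation, the exact permutation test gave -0.52 for Nell1 (p = 0.0435) and 0.25 for Scara5 (p = 0.724). Scara5 was -1.83 within B1, 1.76 within B2 and 0.92 without 2moNoH6 and 2moNoH8, and Lrrtm3 was 0.92 with counts summed per mouse, 0.59 within B2 and 0.59 without those mice. In oocytes from Middle to CR, counts summed per mouse gave 2.56 for Scara5 and 0.82 for Lrrtm3, and all deposited libraries gave 0.060 for Nell1 and 1.17 for Scara5.

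Genes called from Middle to CR in cumulus numbered 887, against 1 with counts summed per mouse, 1453 with all groups in one fit and 304 to 1267 with mice left out. From Young to Old they numbered 914, against 145, 516 and 41 to 686. From 2mo to 4mo they numbered 129, against 78 without a filter, 77 with all groups in one fit, 4 within B1, 6 within B2 and 3 to 380 with mice left out. With counts summed per mouse edgeR called 0 there, with 1900 at an unadjusted p under 0.05. From 2mo to 9mo they numbered 441, against 16 summed per mouse, 12 within B1, 44 within B2 and 157 to 743 with mice left out. From 2mo to 14mo they numbered 388, against 67 summed per mouse, 228 with all groups in one fit, 19 within B2 and 210 to 445 with mice left out. With hyperovulation they numbered 3181, against 252 summed per mouse, 1726 within B1, 818 within B2 and 1516 to 3664 with mice left out. In oocytes from Middle to CR they numbered 7583, against 2142 summed per mouse. Sums per mouse have fewer samples.

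From oocyte to cumulus 23572 genes were called, against 11249 with edgeR's filterByExpr, which tests fewer genes, and the median log2 difference of all genes was 0.40 in DESeq2 and 0.16 in edgeR. With the complex as a block, the pairing gave -2.56 for Nell1 and 1.80 for Lrrtm3 and 22922 called genes, and changed no call of Nell1 or Lrrtm3. The value of Scara5 was 6.79, and its call follows from the filter and is not counted. The interactions with cell type with the complex as a block gave -1.59 (age) and 1.35 (hyperovulation) for Lrrtm3, both still called, and counts summed per mouse gave 1.32 for hyperovulation, no longer called. The age interaction of Scara5 was 0.53 in the exact permutation test (p = 0.317).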
